A study of Homo sapiens with 6 samples.

Results

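ATF4 and 9 genes that act with it or downstream of it in the cellular stress response were followed in MDA-MB-231 cells after knockdown of PHF20L1. The 10 genes (ATF4, ATF3, DDIT3, TRIB3, CHAC1, NUPR1, CEBPB, SESN2, VLDLR and DDIT4) were chosen by symbol as regulators and stress targets of the ATF4 pathway, and all 10 of the 10 were found among the 17452 genes of each file. MDA-MB-231 is an established human line of a triple-negative breast tumour. One group of 3 libraries came from cells that received a control siRNA (siControl) and the other group of 3 from cells that received siRNA against PHF20L1 (siPHF20L1). Both groups shared the cell line, the L-15 medium with serum and the lipid transfection, for which a pair of reagents is named without saying which served which library. No sequence of the siRNA and no time of harvest were given in the sources used here, and the libraries of a group are not described as separate cultures, so every p-value reflects the spread among these libraries alone, which may be technical.

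ATF4 is the transcription factor at the centre of the integrated stress response. Kinases that sense amino acid shortage, misfolded proteins in the endoplasmic reticulum, viral RNA or lack of haem phosphorylate the initiation factor eIF2, which lowers protein synthesis in general and at the same time favours translation of the ATF4 message. The ATF4 protein pairs with C/EBP and other basic leucine zipper (bZIP) proteins and binds composite C/EBP-ATF elements in genes for amino acid supply, for redox balance and, under lasting stress, for cell death. RNA sequencing reads the messages of these genes and not the amount, phosphorylation or DNA binding of the proteins.

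The values are FPKM, fragments per kilobase of transcript scaled to the mapped total of the library, as deposited, and are given as mean ± SD over 3 libraries where a mean is given. The steps between low values put the depth near 17140000 to 17540000 fragments per library, at which 1 fragment in a transcript of 1 kb is worth 0.057 to 0.0583 FPKM. PHF20L1 was lower in every siPHF20L1 library (2.31 to 2.74 FPKM) than in any siControl library (12.48 to 15.75 FPKM). Markers of the line were present, with VIM, FOSL1, AXL, MSN and CD44 summing to 3386 to 3475 FPKM in siControl and 2279 to 2389 FPKM in siPHF20L1 libraries. Of genes chosen as low or absent in the line, ESR1 was listed at 0 in all 6 libraries, PGR reached 0.05 and CDH1 0.45 FPKM. FOXA1 and GATA3 of the same choice were higher, at 2.39 to 2.59 and 1.90 to 2.01 FPKM in siControl. In siPHF20L1 libraries they were at 1.07 to 1.26 and 1.52 to 1.75 FPKM. The 7 markers of blood, endothelial and liver cells summed to 4.46 to 6.09 FPKM. Among these, LYZ reached 4.05 and PTPRC 1.43 FPKM, and HBB was at 0. The libraries numbered 1 of both groups stood apart from those numbered 2 and 3, so each difference is also given within these numbers. Differences are on the log2(FPKM + 1) scale, siPHF20L1 minus siControl, with the standard error (SE) and the adjusted p of limma (Benjamini-Hochberg over 11560 genes, threshold 0.05). This scale understates differences of low genes.

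Of the 10 genes, 6 rose and 2 fell after the knockdown, and 2 did not pass the threshold. ATF4 itself, its partner and successor genes DDIT3 and ATF3, the feedback gene TRIB3, the chromatin-associated NUPR1 and the mTORC1 inhibitor SESN2 were the 6 that rose. The glutathione-degrading enzyme gene CHAC1 and the lipoprotein receptor gene VLDLR fell, and CEBPB and DDIT4 did not pass. Changes were common in these libraries, since 58.6% of all genes tested were called, 34% higher and 24.7% lower. The median difference of the 10 genes was 0.85, against 0.05 over all genes tested. The 10 genes and the gene lists below were chosen with earlier results of these data known, so such contrasts are given as a description. At least 2-fold on the log2 scale were the rises of 4 genes (NUPR1, TRIB3, DDIT3 and ATF3) and the fall of VLDLR, a size reached by 3.34% of all genes in the upward and 1.89% in the downward direction. The siControl and siPHF20L1 libraries did not overlap in the 8 genes that passed, as in 63.7% of all genes tested. All 10 genes passed the filter on low values, and each was at 1.61 FPKM or more in every library. In bulk RNA, a change in the share of cells that express a gene and a change in the amount of its RNA per cell cannot be told apart.

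**Figure D1:**
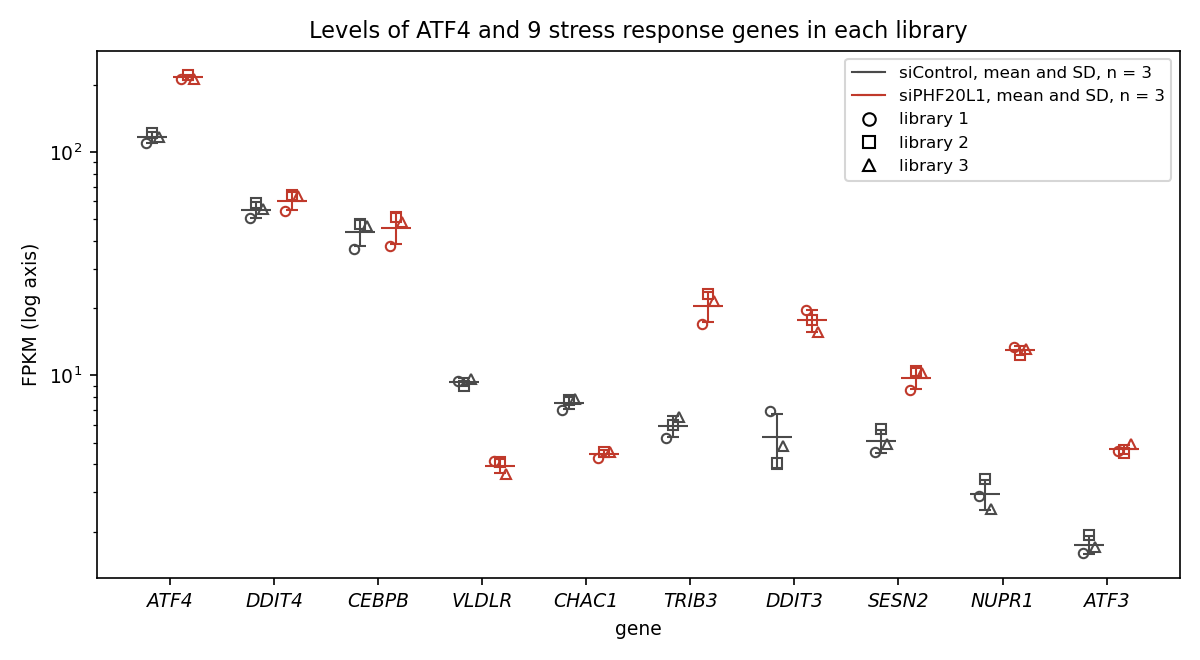
FPKM (log axis) of the 10 genes, ordered by their siControl mean; open symbols are single libraries, horizontal bars with whiskers the mean and SD of 3 libraries. ATF4 is the highest of the 10 in both groups, and VLDLR and CHAC1, 4th and 5th in siControl, have the lowest means of the 10 in siPHF20L1 libraries, where CHAC1 and ATF3 overlap.

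ATF4 (Entrez 468) was read at 109.91, 122.07 and 116.27 FPKM in the siControl libraries 1, 2 and 3 and at 211.96, 221.59 and 212.55 FPKM in the siPHF20L1 libraries. The lowest library of the knockdown thus lay far above the highest control. The mean rose from 116 ± 6.08 to 215 ± 5.40 FPKM, 1.86-fold (log2 difference 0.89 with an SE of 0.06, limma adjusted p = 5.67e-06). Between the libraries numbered 1 the difference was 0.94, and between those numbered 2 and 3 it was 0.86. ATF4 was the most abundant of the 10 messages and supplied 45.9 ± 0.756% of their summed FPKM in siControl and 54.5 ± 1.71% in siPHF20L1 libraries. The annotation holds 4 pseudogenes of ATF4, with which it may share fragments, so its level is uncertain to that extent.

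Upstream of ATF4, the messages of the kinases and their regulators mostly differed by less than that of ATF4. Of 10 listed genes for the eIF2 kinases and their regulators, 5 were higher, 1 lower and 4 not past the threshold, with a median difference of 0.12. For comparison, 34% of all genes tested were higher and 24.7% lower. EIF2AK3, which encodes the endoplasmic reticulum kinase PERK, rose 1.33-fold from 9.03 ± 0.873 FPKM (log2 difference 0.37, limma adjusted p = 0.00726). EIF2AK4, which encodes the amino acid sensor GCN2, went from 21.2 ± 0.451 to 24.2 ± 0.889 FPKM (log2 difference 0.18, limma adjusted p = 0.0215), a call that was lost under 6 of 16 alternatives (adjusted p of EIF2AK4 0.00156 to 0.176), among them those without siControl replicate 2 (0.0691), siControl replicate 3 (0.0767) and siPHF20L1 replicate 2 (0.0977). GCN1, the activator of GCN2, fell from 43.2 ± 1.66 to 35.5 ± 0.567 FPKM. The largest difference of the list was that of OMA1, a mitochondrial protease that relays mitochondrial stress to the kinase HRI, which rose 2.42-fold from 2.01 ± 0.170 to 4.86 ± 0.525 FPKM. DNAJC3, an inhibitor of eIF2 kinases, rose from 6.93 ± 1.00 to 11.6 ± 1.00 FPKM.

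Of 13 genes for eIF2, its exchange factor and its phosphatases, 5 were higher, 6 lower and 2 not past the threshold (median difference -0.13), beside 34% higher and 24.7% lower over all genes tested. With the libraries numbered 2 and 3 averaged, 3 were lower. PPP1R15A encodes GADD34, a target of ATF4 that brings a phosphatase to eIF2 and so ends the response. It was at 50.14, 55.50 and 53.52 FPKM in siControl and at 108.35, 108.29 and 110.85 FPKM in siPHF20L1 libraries, a rise of 2.06-fold (log2 difference 1.03 with an SE of 0.06, limma adjusted p = 2.31e-06). Its catalytic partner gene PPP1CB rose 1.65-fold. Of the eIF2 subunit genes, EIF2S2 fell from 51.0 ± 1.20 to 21.4 ± 1.06 FPKM and EIF2S1, which encodes the subunit that the kinases phosphorylate, from 45.3 ± 3.57 to 28.7 ± 1.21 FPKM, while EIF2S3 rose from 34.6 ± 2.84 to 41.1 ± 2.60 FPKM (log2 difference 0.25, limma adjusted p = 0.0205). The call of EIF2S3 was lost under 5 of the 16 alternatives, among them those without siControl replicate 2 (adjusted p of limma 0.0787) and siControl replicate 3 (0.0743).

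DDIT3 (Entrez 1649) encodes CHOP, a bZIP protein that pairs with C/EBP factors and is known for its part in stress-induced cell death. Its values were 6.91, 4.06 and 4.85 FPKM in siControl and 19.66, 17.61 and 15.71 FPKM in siPHF20L1 libraries. The control group was spread more widely than for the other 9 genes relative to its mean, with library 1 highest in both groups, and the groups did not overlap. The mean rose 3.35-fold from 5.27 ± 1.47 to 17.7 ± 1.98 FPKM (log2 difference 1.59 with an SE of 0.16, limma adjusted p = 4.75e-05). The difference was 1.39 within number 1 and 1.70 within numbers 2 and 3. The annotation places 355 of the 1307 exonic nucleotides of DDIT3 opposite exons of MARS and 58 opposite exons of MBD6, and whether the authors counted by strand was not given. On the same strand, 105 are shared with exons of AC022506.1, for which no values were listed. MARS was at 51.4 ± 2.58 and 58.0 ± 4.55 FPKM, with a log2 difference of 0.17 and a limma adjusted p of 0.0690 (0.000979 with the replicate block). MBD6 rose from 12.7 ± 0.144 to 30.2 ± 1.61 FPKM. The part of MARS, MBD6 and AC022506.1 in the values of DDIT3 was not tested.

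ATF3 (Entrez 467), a bZIP factor induced downstream of ATF4 that mostly represses, was the lowest of the 10 genes in siControl libraries. It was read at 1.61, 1.92 and 1.71 FPKM there and at 4.60, 4.49 and 4.92 FPKM after the knockdown. Both groups were tight and far apart. The rise was 2.67-fold (log2 difference 1.05 with an SE of 0.08, limma adjusted p = 1.05e-05), with 1.10 within number 1 and 1.02 within numbers 2 and 3.

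CEBPB (Entrez 1051) encodes C/EBP-beta, a dimer partner of ATF4 and a target of it. The siControl libraries held 36.95, 47.71 and 46.47 FPKM and the siPHF20L1 libraries 37.73, 51.38 and 48.55 FPKM. Library 1 was the lowest of both groups, and the groups overlapped over most of their range, while each knockdown library was slightly above the control of the same number. The log2 difference of 0.07 (95% interval -0.23 to 0.36) had an adjusted p of 0.688 by limma, and the gene stayed above the threshold with the replicate block (adjusted p = 0.0974) and under every other alternative tried, and its sign turned under 3 of the 16 (-0.049 without siControl replicate 1, -0.021 without siPHF20L1 replicate 2 and -0.012 with median-ratio size factors).

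Among 25 tested bZIP partners and relatives of ATF4, 13 were higher, 8 lower and 4 not past the threshold (median difference 0.17). The shares over all genes tested were 34% higher and 24.7% lower. CEBPD, the closest counterpart of CEBPB in inflammatory and stress signalling, was at 4.66, 7.40 and 7.44 FPKM in siControl and at 11.19, 18.67 and 15.53 FPKM in siPHF20L1 libraries (log2 difference 1.10 with an SE of 0.20, limma adjusted p = 0.00154). Like CEBPB it was lowest in library 1 of both groups, but its groups did not overlap. CEBPG, which pairs with ATF4, was at 11.0 ± 0.545 and 11.1 ± 0.825 FPKM (log2 difference 0.00, 95% interval -0.16 to 0.17). ATF5, the nearest relative of ATF4, rose from 33.4 ± 2.01 to 43.3 ± 1.34 FPKM (log2 difference 0.37, limma adjusted p = 0.00105). The largest difference of the list was that of NFE2L1, a regulator of proteasome genes, which rose 3.12-fold from 31.2 ± 0.183 to 97.3 ± 2.16 FPKM. The endoplasmic reticulum factor gene CREB3L2 rose 1.77-fold, and JUNB fell 1.76-fold. JDP2, a relative of ATF3 and like it mostly a repressor, fell from 3.34 ± 0.148 to 2.74 ± 0.208 FPKM (log2 difference -0.21, limma adjusted p = 0.0376), a call lost under 9 of the 16 alternatives (adjusted p of JDP2 0.00760 to 0.134). It was lost on leaving out any siControl library (adjusted p of limma 0.0574, 0.122 and 0.0641 for replicates 1, 2 and 3) and siPHF20L1 replicate 1 (0.0901) or 3 (0.127).

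TRIB3 (Entrez 57761) encodes a pseudokinase that is induced by ATF4 and CHOP and holds ATF4 activity in check. In siControl libraries it was read at 5.25, 6.01 and 6.53 FPKM, and after the knockdown at 16.89, 23.07 and 21.42 FPKM. Library 1 was the lowest of each group, and even the lowest knockdown library lay well above the highest control. The rise was 3.45-fold, from 5.93 ± 0.644 to 20.5 ± 3.20 FPKM (log2 difference 1.62 with an SE of 0.12, limma adjusted p = 1.00e-05), with 1.52 within number 1 and 1.68 within numbers 2 and 3. Of its relatives, TRIB1 was at 6.50 ± 0.327 and 7.43 ± 0.0907 FPKM (log2 difference 0.17, limma adjusted p = 0.0539, 0.0143 with the replicate block, 0.0404 with no trend in the prior variance and up to 0.293 over the alternatives), and TRIB2 at 13.3 ± 0.269 and 13.4 ± 0.117 FPKM (log2 difference 0.01, 95% interval -0.12 to 0.14). Whether the difference of TRIB3 exceeds those of its relatives was not tested.

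NUPR1 (Entrez 26471), a small chromatin-associated stress protein gene, showed the largest difference of the 10. Its values were 2.88, 3.45 and 2.53 FPKM in siControl and 13.42, 12.28 and 13.11 FPKM in siPHF20L1 libraries. The knockdown libraries lay within a narrow band, clear of the controls. The mean rose 4.38-fold from 2.95 ± 0.464 to 12.9 ± 0.589 FPKM (log2 difference 1.82 with an SE of 0.09, limma adjusted p = 1.85e-06). By log2 difference NUPR1 ranked 28th, TRIB3 57th and DDIT3 64th from the top among the 11560 genes tested, while ATF3 ranked 346th, ATF4 565th and SESN2 714th. The paralog NUPR2 was near the limit of detection, at 0 to 0.18 FPKM over the 6 libraries, and was not tested.

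**Figure D2:**
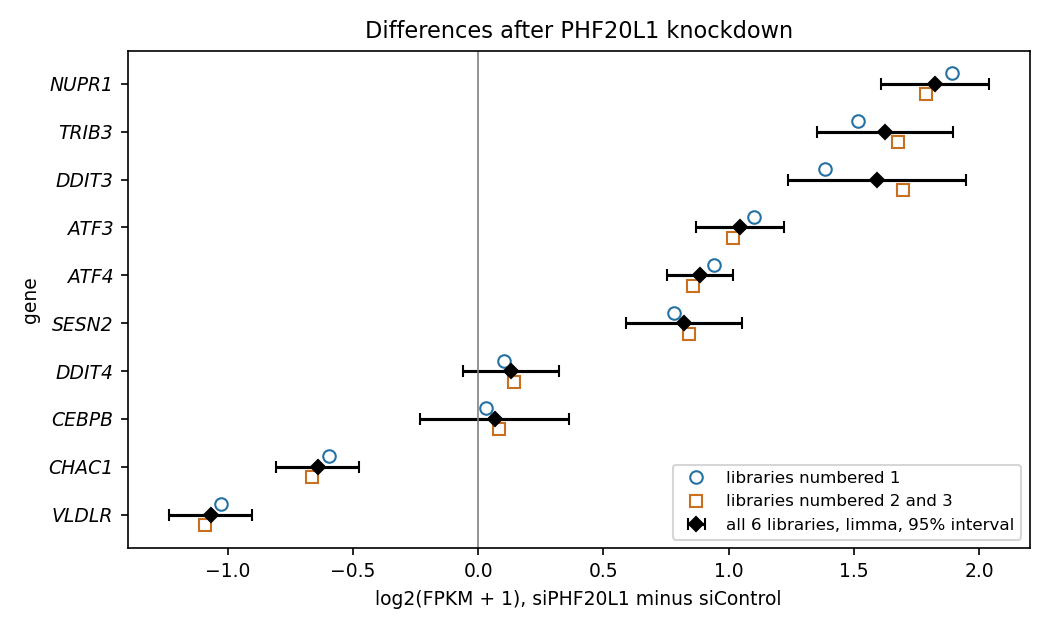
Log2 difference (siPHF20L1 minus siControl, log2(FPKM + 1) scale) of the 10 genes; black diamonds with 95% intervals are from limma over all 6 libraries, circles the libraries numbered 1 and squares those numbered 2 and 3. The intervals of DDIT4 and CEBPB include 0, and for the other 8 genes both subsets lie on the same side of 0 as the whole.

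CHAC1 (Entrez 79094) encodes an enzyme that degrades glutathione and is widely used as a readout of the ATF4, ATF3 and CHOP branch, yet it fell. The siControl libraries held 6.97, 7.76 and 7.83 FPKM and the siPHF20L1 libraries 4.28, 4.53 and 4.56 FPKM. Every knockdown library was below every control. The mean went from 7.52 ± 0.478 to 4.46 ± 0.154 FPKM, 1.69-fold lower (log2 difference -0.64 with an SE of 0.07, limma adjusted p = 0.000109). The difference was -0.59 within number 1 and -0.67 within numbers 2 and 3. For its relative CHAC2 no difference was detected, at 10.4 ± 0.476 and 10.4 ± 0.922 FPKM (log2 difference -0.00, 95% interval -0.18 to 0.17).

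The fall of CHAC1 stood against the rise of ATF4 in each library. Set against 100 FPKM of ATF4, CHAC1 was at 6.34, 6.36 and 6.73 FPKM in siControl and at 2.02, 2.04 and 2.15 FPKM in siPHF20L1 libraries. TRIB3 on the same scale was at 4.78, 4.92 and 5.62 FPKM in siControl and at 7.97, 10.4 and 10.1 FPKM in siPHF20L1 libraries. TRIB3 was thus below CHAC1 in each siControl library (0.753 to 0.834 FPKM per FPKM of CHAC1) and above it in each siPHF20L1 library (3.95 to 5.09). DDIT3 per 100 FPKM of ATF4 was at 6.29, 3.33 and 4.17 FPKM in siControl and at 9.28, 7.95 and 7.39 FPKM in siPHF20L1 libraries. These ratios do not depend on the scaling of a library, and as they were chosen with the values known they are given as a description.

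**Figure D3:**
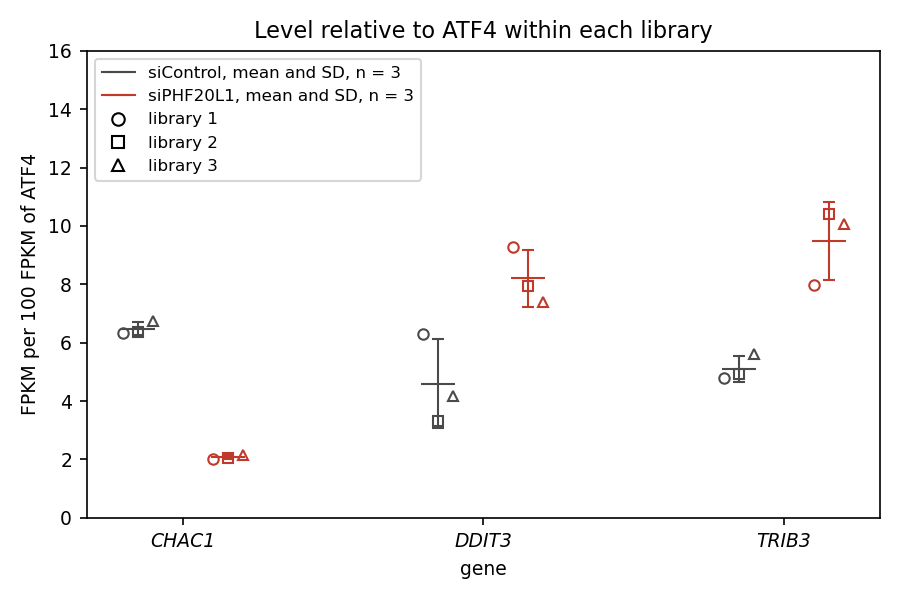
FPKM of CHAC1, DDIT3 and TRIB3 per 100 FPKM of ATF4 in the same library (linear axis from 0); open symbols are single libraries, bars with whiskers the mean and SD of 3. CHAC1 goes from 6.34 to 6.73 down to 2.02 to 2.15, while TRIB3 and DDIT3 move up.

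RefSeq starts of 9 of the 10 genes were at hand, NUPR1 being the other, with 250 bases before and 50 after each start on build GRCh38.p14. They were searched on both strands for the word TGATGNAA, the shared part of composite C/EBP-ATF elements, which 3.62% of all 35116 windows hold. It was found in CHAC1, which fell, and in ATF3, which rose, so both stretches are shown, 5′ to 3′ on the plus strand with the word in capitals. In CHAC1 (chr15:40953236-40953295) the word reads on the other strand, 209 to 202 bases before the start, and in ATF3 (chr1:212565190-212565249) it lies 191 to 184 bases before the first of 2 listed starts.
CHAC1: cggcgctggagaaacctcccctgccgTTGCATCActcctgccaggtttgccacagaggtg
ATF3: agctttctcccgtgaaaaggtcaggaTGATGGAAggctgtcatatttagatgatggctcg
The windows of ATF4, DDIT3, TRIB3, CEBPB, SESN2, VLDLR and DDIT4 do not hold these letters. By gene, 2.62% of the 9543 tested genes with a window hold the composite word. None of the 9 genes has the cAMP response word TGACGT (7.98% of all windows and 14.4% of tested genes) or the full ER stress element known as ERSE (0.0769% and 0.168%). Its last part, CCACG, lies in windows of ATF4, TRIB3, CHAC1, VLDLR and DDIT4, 5 of the 9 genes, near the 57.8% of tested genes that hold it (38.1% of all windows). These are matches of letters, and binding was not measured.

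SESN2 and DDIT4 both encode inhibitors of the growth kinase complex mTORC1, one through the leucine-sensing GATOR branch and the other, also named REDD1, through TSC2. SESN2 (Entrez 83667) was at 4.56, 5.75 and 4.95 FPKM in siControl and at 8.56, 10.47 and 10.23 FPKM in siPHF20L1 libraries. The groups were well apart. The rise was 1.92-fold (log2 difference 0.82 with an SE of 0.10, limma adjusted p = 0.000178), with 0.78 within number 1 and 0.84 within numbers 2 and 3. DDIT4 (Entrez 54541) was at 50.43, 59.23 and 55.74 FPKM in siControl and at 54.18, 63.87 and 63.34 FPKM in siPHF20L1 libraries. Library 1 was the lowest of each group and the groups overlapped, while each knockdown library was above the control of the same number. The log2 difference of 0.13 (95% interval -0.06 to 0.32) had an adjusted p of 0.212 by limma. With the replicate number as a block DDIT4 was called higher (adjusted p = 0.00462), in a fit that called 42.8% of all genes higher, and the adjusted p of limma for DDIT4 ran from 0.00462 to 0.651 over the 16 alternatives, with 0.0382 without siPHF20L1 replicate 1. An antisense gene covers 847 of the 1748 exonic nucleotides of DDIT4, so its values are uncertain if strand was not used, as are those of CEBPB (231 of 1956 nucleotides) and VLDLR (738 of 9339).

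A list of other mTORC1 regulators holds inhibitors, the GATOR2 genes, which act in favour of mTORC1, and the 4E-BP genes, which are its targets. Of its 16 tested genes 6 were higher and 5 lower (median difference -0.02), shares near those of all genes tested (34% and 24.7%). SESN3, a relative of SESN2, fell 2.37-fold from 2.43 ± 0.409 to 1.03 ± 0.165 FPKM (log2 difference -0.76, limma adjusted p = 0.000380), and SESN1 was at 2.53 ± 0.163 and 2.50 ± 0.365 FPKM (log2 difference -0.02, 95% interval -0.23 to 0.19). The 3 sestrin genes thus showed a rise, a fall and a difference that did not pass. Of the GATOR2 complex, to which SESN2 binds, WDR24 rose 1.82-fold and SEH1L fell 1.70-fold. The arginine sensor gene CASTOR1, listed in the files as GATSL3, fell 1.67-fold. DDIT4L, the relative of DDIT4, did not exceed 0.02 FPKM.

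VLDLR (Entrez 7436), a lipoprotein receptor gene that ATF4 is known to induce under endoplasmic reticulum stress, was the member with the largest fall. The 3 controls gave 9.46, 8.97 and 9.68 FPKM, and the 3 knockdown libraries gave 4.13, 4.08 and 3.63 FPKM. The groups lay far apart, with little spread in either. The mean fell 2.37-fold from 9.37 ± 0.363 to 3.95 ± 0.275 FPKM (log2 difference -1.07 with an SE of 0.07, limma adjusted p = 6.96e-06), which placed VLDLR 175th from the bottom among the 11560 genes. Within number 1 the difference was -1.03, and within numbers 2 and 3 it was -1.09. Of its relatives, LRP8 fell from 8.63 ± 0.330 to 6.47 ± 0.170 FPKM and LRP1 from 24.5 ± 0.776 to 19.9 ± 1.28 FPKM. Over the closest relatives of all 10 genes, 15 were in the files and 12 were tested, of which 3 were higher, ATF5 and CEBPD among them, 4 lower (SESN3, LRP8, LRP1 and JDP2) and 5 not past the threshold. Of all genes tested, 34% were higher and 24.7% lower. Beside NUPR2 and DDIT4L, CEBPA was not tested, at 0.3 FPKM or less.

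Genes that ATF4 is known to switch on outside this set were divided. Over all genes tested, 34% were higher and 24.7% lower, with a median difference of 0.05. In the list of amino acid targets, 17 of 29 tested genes were higher, 4 lower and 8 not past the threshold (median difference 0.29). Without siPHF20L1 replicate 2 the lower genes numbered 2. The cystine transporter gene SLC7A11 rose 2.30-fold from 10.5 ± 1.96 to 24.1 ± 3.15 FPKM, the aminotransferase gene GPT2 1.96-fold, and the glutamine transporter gene SLC1A5 1.75-fold. ASNS, which makes asparagine and is among the best known ATF4 targets, rose from 13.5 ± 0.282 to 18.5 ± 0.658 FPKM (log2 difference 0.43 with an SE of 0.06, limma adjusted p = 0.000321). The tyrosyl-tRNA synthetase gene YARS went the other way, from 45.8 ± 0.986 to 15.5 ± 1.02 FPKM, the largest difference of that list. PHGDH, the first enzyme of serine synthesis, stayed at or below 0.48 FPKM in all 6 libraries and was not tested.

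In the list of secreted and apoptotic targets of ATF4 and CHOP, 6 of 16 tested genes were higher, 3 lower and 7 not past the threshold. These shares are near those of all genes tested (34% higher and 24.7% lower), and the median difference of the list was -0.01. The count of lower genes was 1 without siControl replicate 2 or siPHF20L1 replicate 3. The rises in that list included some of the larger ones. GDF15, a secreted stress hormone, was at 1.90, 1.91 and 2.82 FPKM in siControl and at 7.87, 11.24 and 10.10 FPKM in siPHF20L1 libraries, 4.41-fold higher (log2 difference 1.74 with an SE of 0.15, limma adjusted p = 2.05e-05). The oxidase gene ERO1A, a CHOP target that oxidises proteins in the endoplasmic reticulum, rose 2.73-fold from 11.5 ± 1.30 to 31.4 ± 4.03 FPKM. The cell death genes BBC3, which encodes PUMA, and PMAIP1, which encodes NOXA, rose 2.73-fold and 2.29-fold. FGF21, the other well-known ATF4 hormone, reached at most 0.04 FPKM.

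**Figure D4:**
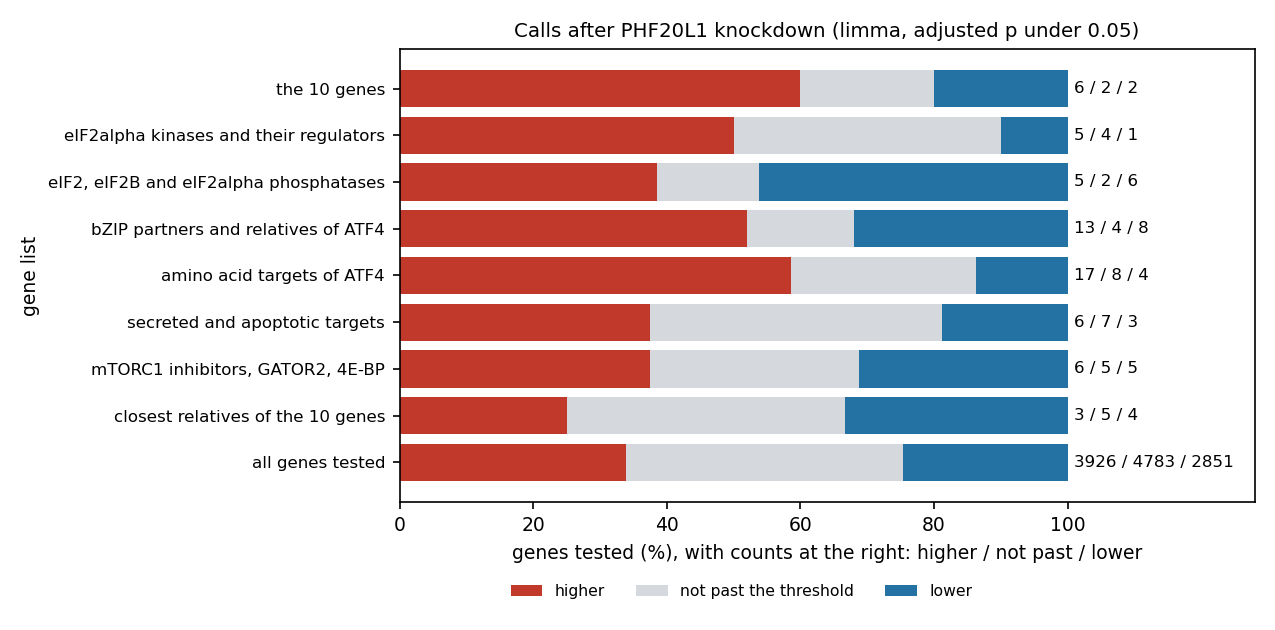
Share of tested genes in each list that were called higher (red), lower (blue) or did not pass (grey) by limma at an adjusted p under 0.05, with the counts at the right; the bottom bar shows all 11560 genes tested. The 10 genes have 6 higher and 2 lower, and every list holds genes in both directions.

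The order of the levels changed between the groups. In siControl libraries it ran ATF4, DDIT4, CEBPB, VLDLR, CHAC1, TRIB3, DDIT3, SESN2, NUPR1 and ATF3, where TRIB3 and DDIT3, and DDIT3 and SESN2, overlapped over their libraries and the other neighbours did not. In siPHF20L1 libraries the first 3 were the same, followed by TRIB3, DDIT3, NUPR1, SESN2, ATF3, CHAC1 and VLDLR, with overlap between TRIB3 and DDIT3 and between ATF3 and CHAC1. The summed FPKM of the 10 genes was 253 ± 16.3 in siControl and 396 ± 19.1 in siPHF20L1 libraries.

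Outside the lists, the genes whose levels followed ATF4 most closely over the 6 libraries included STX4, FAM32A, C10orf2 and HSPA5, with a Pearson r of 0.999 or more on the log2(FPKM + 1) scale. HSPA5, the endoplasmic reticulum chaperone BiP, averaged 127 ± 5.37 FPKM in the controls and 202 ± 3.51 FPKM after the knockdown. The points are 2 groups of 3, so r mostly reads the difference between the groups, and 462 of the 11430 genes outside the lists had an r over 0.99. Among the 10 genes, r with ATF4 was highest for ATF3 (0.99) and NUPR1 (0.99) and lowest for VLDLR (-0.99), with 0.61 for DDIT4 and 0.26 for CEBPB.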

How the data were processed

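Messenger RNA was measured in 6 libraries, 3 siControl and 3 siPHF20L1, grouped by the labels. Per the file headers, the values deposited by the authors are FPKM, 1 per Entrez gene. Poly-A selection and a stranded kit are named per the labels' protocols. The submitters' processing notes list Bowtie 0.12.2, TopHat2 2.1.1, HTSeq 0.6.0 and GRCh37, without roles. How FPKM were computed was not given in the sources used here. Symbols written as dates (26) were restored through the Entrez identifier. Depth was estimated from steps in FPKM times transcript length, which cover counting error only.

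Genes with FPKM of at least 1 in at least 3 libraries (11560) were fitted with limma 3.58.1 (R 4.3.3) on log2(FPKM + 1), with an intensity trend and no block, two-sided. The procedure was tested on simulated data with independent libraries. As the simulation held no spread shared by libraries of a number, it cannot vouch for the fit without a block on that point. Deviations of same-numbered libraries from their group means correlated at 0.73, 0.44 and 0.42 for numbers 1, 2 and 3. Between numbers 2 and 3 they correlated at 0.49 (siControl 3 with siPHF20L1 2) and 0.31 (siControl 2 with siPHF20L1 3). The correlations thus set number 1 apart but do not pair numbers 2 and 3. The number served as a block in an alternative. The other alternatives were scaling, pseudocount, filter, trend, subsets and left-out libraries. The 10 genes and all lists were chosen with earlier results of these data known. Named from each list were the 4 largest differences past the threshold, all closest relatives, and PPP1R15A, EIF2AK3, EIF2AK4, ASNS and ATF5, and the 5 genes most correlated with ATF4, and 2 genes named by this rule are not reported here. PHGDH, FGF21, EIF2S3, MARS and MBD6 were named after their values were seen. Exons came from GENCODE 29 (GRCh38), leaving out transcripts with a retained intron, and promoters from RefSeq (GRCh38.p14). Shared exonic nucleotides were counted by their positions on GRCh38.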

Additional observations from a re-analysis of the deposited data

How the results depend on the processing

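Over 16 alternatives of scaling, pseudocount, filter, variance prior, block and libraries, the 6 genes that rose and the 2 that fell kept their direction and their side of the threshold in every one. DDIT4 passed with the replicate block (log2 difference 0.13, limma adjusted p = 0.00462), in numbers 2 and 3 taken alone (0.14, adjusted p = 0.0105) and without siPHF20L1 replicate 1 (0.21, adjusted p = 0.0382), each of which gave 7 genes higher in place of 6. Leaving out 1 library at a time gave DDIT4 0.068 to 0.21. CEBPB changed sign with median-ratio size factors (-0.012), without siControl replicate 1 (-0.049) and without siPHF20L1 replicate 2 (-0.021), and over the left-out libraries ran from -0.049 to 0.20. The causes were not tested. All genes called higher numbered 2966 to 4946 and lower 1946 to 3846, each within 1.5 times the main count. The block changed no other call among the 10 and, among the other named genes it was run on, those of TRIB1 and MARS. With numbers 2 and 3 averaged, genes higher fell from 5 to 3 for the kinase list and from 6 to 3 for the mTORC1 list, and genes lower from 6 to 3 for the eIF2 list, from 4 to 2 for the amino acid list and from 3 to 1 for the secreted list. Genes lower in the secreted list numbered 5 with quantile normalization, the block or numbers 2 and 3 alone, in the kinase list 2 in place of 1 with quantile normalization, and among relatives 2 in place of 4 in numbers 2 and 3 alone.

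Relatives near 0 changed sign without passing the threshold. With median-ratio size factors TRIB2 was at -0.065 and CEBPG at -0.069, and with quantile normalization TRIB2 was at -0.035 and CEBPG at -0.072. In numbers 2 and 3 taken alone CEBPG was at -0.017. With equal FPKM sums CHAC2 was at 0.012, and with numbers 2 and 3 averaged CHAC2 was at 0.014 and SESN1 at 0.00084. Over the left-out libraries TRIB2 ran from -0.0059 to 0.021, CEBPG from -0.050 to 0.044, CHAC2 from -0.069 to 0.039 and SESN1 from -0.093 to 0.058. The depth limits what can be said of NUPR2, DDIT4L and CEBPA, which lay under the filter.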

Other observations

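Over all genes tested, the deviations of the libraries numbered 1 from their group means correlated at 0.73 between the groups. Shared directions of library 1 are therefore not particular to the 10 genes. For some of the 10 library 1 was hardly apart, as for VLDLR in siControl, where its 9.46 FPKM lay between 8.97 and 9.68. For NUPR1 the directions differed between the groups. On the log2(FPKM + 1) scale CEBPB was lower in library 1, at -0.34 in siControl and -0.40 in siPHF20L1 libraries. For TRIB3 these values were -0.22 and -0.38, for SESN2 -0.19 and -0.25, and for DDIT4 -0.18 and -0.23. DDIT3 was higher in library 1, at 0.54 and 0.23. For CEBPB and DDIT4 these distances were larger in size than the log2 differences between the groups, 0.07 and 0.13, which did not pass the threshold. Whether the sizes differ beyond the spread of the libraries was not tested. What the number stands for was not given in the sources used here.

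Relative to DDIT4, the other mTORC1 inhibitor among the 10 genes, SESN2 was at 0.0904, 0.0971 and 0.0888 FPKM per FPKM in siControl and at 0.158, 0.164 and 0.162 in siPHF20L1 libraries. Relative to CEBPB, its dimer partner, ATF4 was at 2.97, 2.56 and 2.50 FPKM per FPKM in siControl and at 5.62, 4.31 and 4.38 in siPHF20L1 libraries. The spread of SESN2 and DDIT4 over the numbers largely cancelled in their ratio, and that of ATF4 and CEBPB did not. Both ratios were chosen with the values known.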
